A study of Mus musculus with 58 samples.

Results

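Of the 58 cells in the series, 54 carry the quality label Pass, and 14 of those 54 held more counts of Sst than of Pvalb. These 14 cells are described here against the other 40 Pass cells, in which Pvalb was at or above Sst. Each sample is the cytosol of 1 cell drawn through a patch pipette from the ventral subiculum, through which the hippocampus sends much of its output. All cells came from mice of 1 strain, PV-Cre::Ai9, in which Cre made under the parvalbumin gene switches on the red reporter of the Ai9 allele; the reporter records Cre at any earlier time, so a labelled cell need not make parvalbumin when it is harvested. No treatment is named. The series holds 29 cells from 4 male and 29 cells from 3 female individuals, at postnatal days 35 and 36 (male) and 40 and 42 (female), so sex and age cannot be told apart. No label ties a cell to its animal.

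Somatostatin and parvalbumin are made by 2 large families of GABA-releasing interneurons that arise from the same embryonic zone, the medial ganglionic eminence. Somatostatin (Sst) is a secreted peptide and marks cells that mostly contact the dendrites of their targets. Parvalbumin (Pvalb) is a cytosolic calcium buffer and marks fast-firing cells that mostly contact cell bodies and axon initial segments. Cells with both transcripts are known in the hippocampus and cortex.

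The 14 cells were spread over all 4 sex-and-age groups, called pools here. They were 4 of 14 cells of the male P35 pool, 5 of 13 of male P36, 2 of 17 of female P40 and 3 of 10 of female P42 cells. Together they made up 25.9% of the Pass cells (exact 95% binomial interval 14.96 to 39.7%, which covers counting error only and takes cells as independent). The male share was 33.3% (16.5 to 54.0%) and the female share 18.5% (6.30 to 38.1%), and these intervals overlap.

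Sst lies at chromosome 16, 23889573 to 23890958 on the minus strand, and Pvalb at chromosome 15, 78191114 to 78206400 on the minus strand (GENCODE vM21, GRCm38). The cells were chosen by these 2 counts, so the levels are given as a description, with no test. Sst in the 14 cells ran from 1.66 to 3298 CPM (counts scaled to a common total per cell), with a median of 188. In the other 40 it ran from 0.115 to 104 CPM, with a median of 5.54. Pvalb ran from 1.18 to 96.0 CPM in the 14 cells, median 12.2, and from 10.1 to 788 CPM in the 40, median 121. Every one of the 40 cells therefore had at least 10 CPM of Pvalb, as did 7 of the 14.

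**Figure D1:**
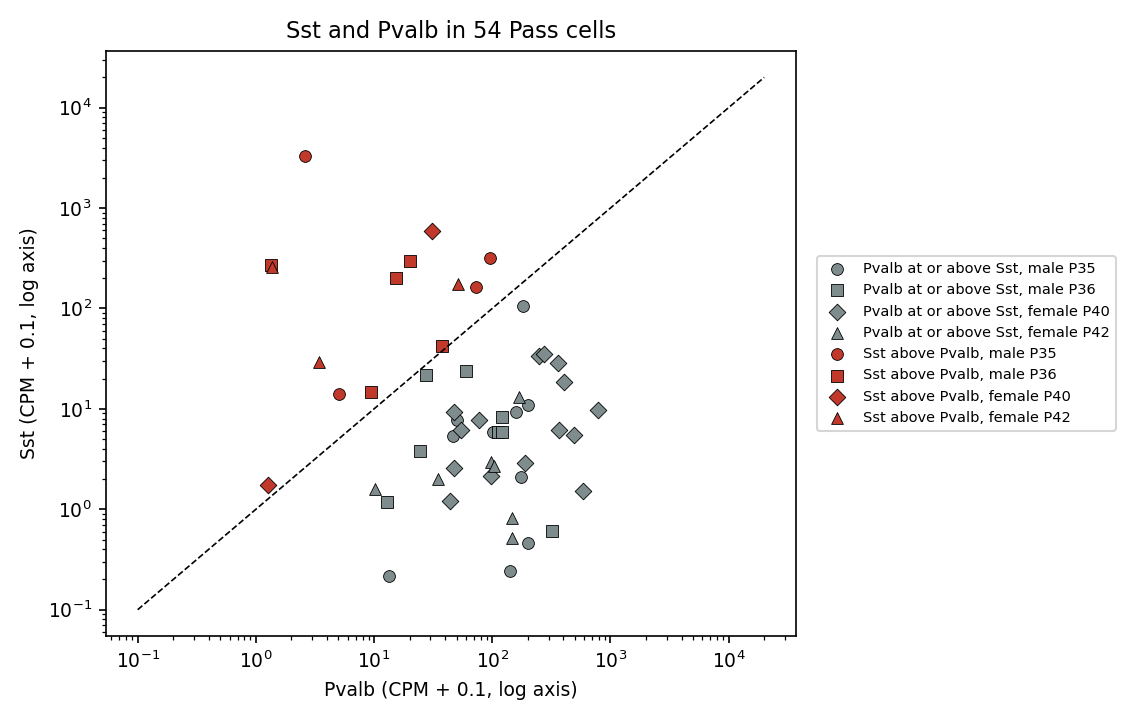
Sst (vertical) against Pvalb (horizontal) in each of the 54 Pass cells, both as CPM + 0.1 on log axes; colours give the side, symbols the pool, and the dashed line equal values. The 14 cells above the line include 1 at 3298 CPM of Sst and several close to the line.

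The 14 cells were not alike in the margin by which Sst exceeded Pvalb. The ratio of Sst to Pvalb counts was 4 or more in 7 cells. It was 1326 in male cell 5 (3298 CPM of Sst, 2.49 of Pvalb), 216 in male cell 16, 203 in female cell 18, 19.3 in female cell 26, 14.9 in male cell 29, 13.3 in male cell 27 and 8.71 in female cell 20. The other 7 cells had ratios from 1.13 to 3.39. Male cell 5 alone held 47.0% of the Sst counts of the 14 cells. Just inside the line stood male cell 28 at a ratio of 1.13, female cell 23 at 1.41 and male cell 9 at 1.57. Female cell 23 had little of either transcript, 1.66 CPM of Sst and 1.18 of Pvalb. Just outside stood male cell 25 at 0.789, male cell 1 at 0.571 and male cell 12 at 0.397. The annotated exons cover 721 bases in Sst and 1041 in Pvalb, and counted per exon length 1 more cell, male cell 25, crosses over and makes 15.

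All 14 cells held the transcripts of GABA neurons. Gad1, which makes GABA, ran from 1337 to 6751 CPM in them, median 3033, and from 1531 to 5711 CPM in the 40, median 3609. The vesicular GABA transporter gene Slc32a1 was found in all 14, at 1.45 to 121 CPM. Total counts were 3.22 to 28.9 M in the 14 cells and 2.05 to 52.3 M in the 40, with medians of 12950 and 13060 genes detected.

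RNA of other cell types was present in some harvests on both sides. Summed over 8 oligodendrocyte markers, the 14 cells ran from 172 to 8748 CPM (median 402) and the 40 from 97.4 to 12822 (median 501). Summed over 8 microglia markers, they ran from 29.3 to 1702 CPM (median 66.2) and from 6.32 to 10142 (median 197). Male cell 7 held 8748 CPM of oligodendrocyte and 1702 CPM of microglia markers, and male cell 19 held 7638 CPM of oligodendrocyte markers. Excitatory neuron markers summed to 41.6 to 1382 CPM in the 14 cells, and their glutamate transporter gene Slc17a7 reached 428 CPM in male cell 29. No marker of these 3 lists was at 0 in all 14 cells. The part that this RNA plays in the differences below was not tested beyond leaving out 14 cells with high marker sums, 5 of them among the cells with Sst above Pvalb. The sums used were those of oligodendrocyte, microglia, excitatory neuron and red blood cell markers and of VIP and CCK interneuron markers, so that values of these markers themselves are not given for the cells that remain.

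For the comparison of all other genes, counts were summed within each pool for each side, giving 4 sums for the cells with Sst above Pvalb and 4 for the other cells. Cells of 1 animal share their source, so cells were not used as replicates; a pool may hold several animals, and its p-values measure the spread between pools. edgeR's quasi-likelihood test with the pool as a block called none of 14027 genes at an adjusted p under 0.05 (0% called; smallest adjusted p 0.577). At an unadjusted p under 0.05 it listed 711 genes, or 5.07% of those tested, of which 1.66% were higher and 3.41% lower in the cells with Sst above Pvalb. DESeq2 on the same sums called 272 genes (1.94%), 51 higher (0.364%) and 221 lower (1.58%). The 221 lower ones were sparse: their median over cells had a median of 0.303 CPM, against 18.5 CPM over all tested genes. Without the 14 cells of high other-cell marker sums edgeR also called 0 genes (610 at an unadjusted p under 0.05). The log2 differences below come from edgeR and none is a call of that test; where DESeq2 called a gene, that is said beside it. Over all tested genes the log2 difference was below 0 in 56.0% and above 0 in 44.0%. These shares are the background for the counts of lower and higher genes in each list below. The shares given above at an unadjusted p under 0.05 and for DESeq2 are the background for such counts in the lists.

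For description, up to 8 genes in each direction were taken, those with the smallest unadjusted p and the same sign in all 4 pools. DESeq2, on the same sums that chose them, called each of the 15 described here, with adjusted p from 2.97e-08 for Flrt3 to 0.0146 for Pfkp. Among all tested genes 839 (5.98%) were higher in all 4 pools and 1121 (7.99%) were lower in all 4, so the sign alone is common. The sums of the 4 pools lay wholly above those of the other side for 215 genes (1.53%) and wholly below for 365 (2.60%).

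Ache, which encodes acetylcholinesterase, the enzyme that breaks down acetylcholine, had the smallest p among the higher genes (chromosome 5, 137287519 to 137294466, plus strand). Its 4 sums were 349, 205, 271 and 324 CPM in the male P35, male P36, female P40 and then female P42 pools, against 112, 133, 123 and 129 CPM. The lowest of the first set stood above the highest of the second. The log2 difference was 1.18 ± 0.21 (SE, n = 4 pools; edgeR adjusted p = 0.897, DESeq2 adjusted p = 0.000203), and 1.44 ± 0.30 without the cells of high other-cell marker sums. Cell by cell the sides overlapped widely: 2.43 to 646 CPM, median 214, in the 14 cells, and 0.497 to 542 CPM, median 118, in the 40. Male cell 5, with the highest level per cell, held 12.8% of the counts of the 14. Male cell 6, at 426 CPM and with a larger total (28.1 M counts against 10.1 M), held more of them.

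Of the other genes on the higher side, Nrsn2, a membrane protein of neuronal vesicles, had sums of 276 to 387 CPM against 173 to 215. Rraga, a GTPase that signals amino acid supply to mTOR, had 134 to 179 CPM against 56.7 to 94.6. Pnmal2 had 188 to 254 CPM against 96.2 to 137. Vps8, a part of an endosome tethering complex, had 93.1 to 170 CPM against 36.6 to 66.2. None of these 4 pairs of ranges overlapped. Overlap was present for Atg7, an enzyme of autophagy (26.1 to 106 CPM against 17.4 to 28.1), for Tctn3, a protein of the cilium's base (30.8 to 111 against 12.03 to 49.0), and for Pfkp, a glycolytic phosphofructokinase (429 to 721 against 316 to 430). Their log2 differences ran from 0.68 ± 0.16 for Pfkp to 1.51 ± 0.36 for Atg7. The Atg7 value was 0.07 ± 1.16 with only the cells of a 4-fold margin and 0.52 ± 0.96 without the 1 cell under 10 CPM of Sst, female cell 23.

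Flrt3 showed the clearest gap among the lower genes that were present in every cell. It encodes an adhesion protein that binds latrophilins and Unc5 receptors (chromosome 2, 140650914 to 140671469, minus strand). Its sums were 3.80, 3.54, 3.47 and 19.4 CPM in the cells with Sst above Pvalb, against 45.4, 51.6, 39.0 and 80.4 CPM. The highest of the first set was under the lowest of the second. The log2 difference was -3.26 ± 0.52 (SE, n = 4 pools; edgeR adjusted p = 0.577, DESeq2 adjusted p = 2.97e-08), and -3.63 ± 0.83 without the cells of high other-cell marker sums. Per cell, Flrt3 ran from 0.428 to 34.8 CPM, median 3.08, in the 14 cells and from 0.603 to 205 CPM, median 37.8, in the 40. Female cell 14, with the highest level per cell, held 15.5% of the counts of the 14. Female cell 20, at 32.5 CPM and with a larger total (16.5 M counts against 5.61 M), held more of them.

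Ift27, a small GTPase of the transport trains in cilia, had the smallest p of all genes. Its sums were 157, 89.5, 77.7 and 89.0 CPM against 333, 316, 182 and 219 CPM, with no overlap, and a log2 difference of -1.36 ± 0.20, which was -0.88 ± 0.26 without the cells of high other-cell marker sums. Ift27 and Pvalb lie close together on chromosome 15: Ift27 runs from 78159463 to 78174107 on the same strand, downstream of Pvalb. Pvalb chose the cells and strand use in the counting is not given, so that a share of reads from 1 gene counted for the other was not tested. For Ift27 the edgeR adjusted p was 0.577 and the DESeq2 adjusted p 1.22e-05.

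Another 5 lower genes were sparse, with medians over the 14 cells of 0.0301 to 0.449 CPM, and their log2 differences, from -6.91 for Akr1c18 to -4.10 for Unc93b1, rest on few counts. Akr1c18, a steroid-metabolising enzyme that is listed as a marker of parvalbumin cells, was found in 7 of the 14 cells, at most at 1.37 CPM, and in 29 of the 40, at up to 148 CPM. Fgd3, Rassf6 and Vav2 take part in signalling through small GTPases. In the cells with Sst above Pvalb, the sums of Akr1c18, Rassf6 and Vav2 reached at most 0.262, 0.302 and 0.873 CPM. These 3 genes passed the filter on counts only through the other cells, so their lower direction is no finding. Female cell 3 held 51.5% of the Fgd3 counts of the 40 cells. Unc93b1 moves Toll-like receptors to endosomes, and female cell 21 held 52.3% of its counts in the 40; that cell also held 53.4% of their counts of Csf1r, a microglial receptor.

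**Figure D2:**
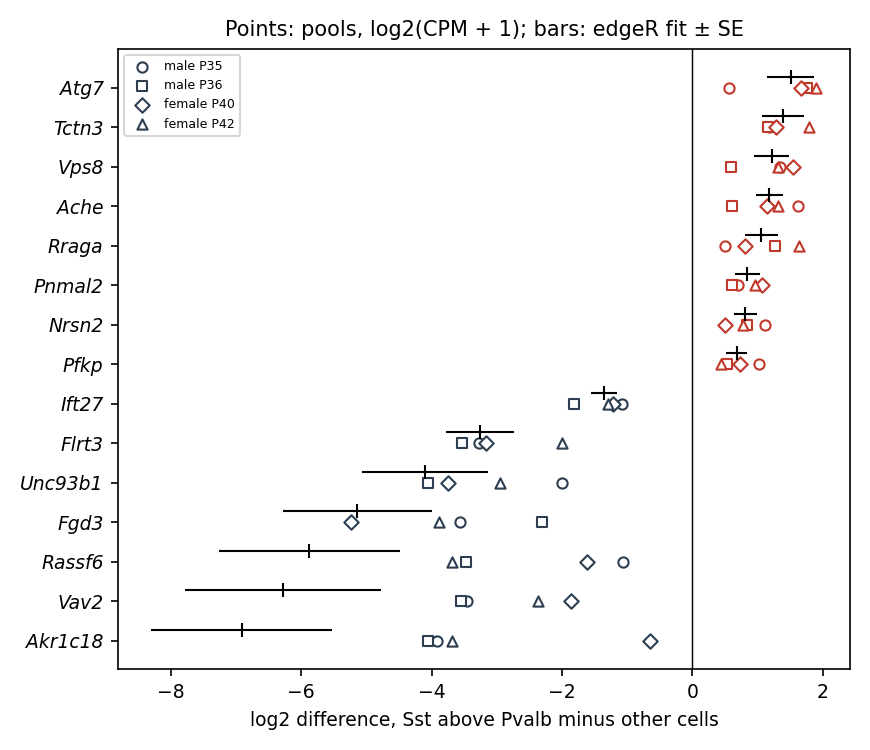
Log2 difference, cells with Sst above Pvalb minus other cells, for 15 genes; open symbols are the 4 pools, as differences of log2(CPM + 1), and black bars the edgeR estimate ± SE. All 4 pools lie on the same side of 0 for each gene, as the choice of genes requires, and the fitted values of the sparse genes lie beyond most of their pools.

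Genes known to mark somatostatin cells did not stand on 1 side of 0. Of the 20 in the list, Sst itself was set aside and 4 were too rare to test, and of the 15 tested 9 were higher and 6 lower in the cells with Sst above Pvalb, with a median log2 difference of 0.21 against -0.08 over all tested genes. None passed, and 2, both higher, had an unadjusted p under 0.05 (1.66% of all tested genes were higher at that p). Rbp4, a retinol carrier, had sums of 847, 747, 729 and 685 CPM against 501, 300.3, 572 and 479, without overlap (0.73 ± 0.19; edgeR adjusted p = 0.897). Crhbp, which binds the stress peptide CRH, was higher in every pool but overlapped, at 460 to 828 CPM against 220 to 487. Cort, a peptide related to somatostatin, had 12.04 to 92.9 CPM against 10.6 to 13.7, and female cell 18 held 39.6% of its counts in the 14.

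Several classic somatostatin-cell genes showed no difference beyond their spread. Grin3a, an NMDA receptor subunit, had a log2 difference of 0.01 ± 1.04, and Elfn1, which sets the release properties of inputs onto these cells, -0.02 ± 1.26. Npy, a peptide, had -0.23 ± 1.62: male cell 5 reached 3779 CPM and held 97.3% of the Npy counts of the 14 cells, whose median was 5.68 CPM. Calb1, a calcium buffer, had 188 to 1845 CPM against 271 to 818. Chrna2 and Pdyn were at 0 in all 14 cells, Hpse had counts in 1 of them and Chodl in 2. In male cell 5, which had the most Sst, Calb1 stood at 1402 CPM and Grin3a at 235 CPM, so that this cell was high in several genes of the list at once.

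Genes that mark parvalbumin cells were present on both sides. Of 22 listed, 20 were tested, and 7 were higher and 13 lower, with a median log2 difference of -0.13. Of the lower ones 5 had an unadjusted p under 0.05 (3.41% of all tested genes were lower at that p). The fast potassium channel genes had log2 differences of -0.15 ± 0.22 for Kcnc1 and 0.11 ± 0.20 for Kcnc2. Kcnc1 had 216 to 495 CPM against 305 to 405, and Kcnc2 had 492 to 843 CPM against 476 to 635. Tac1, the substance P precursor, had 646 to 1663 CPM against 465 to 1100.4. Lower values stood in Syt2, the calcium sensor of fast release, with 21.5, 46.2, 78.0 and 6.10 CPM against 131, 101, 66.8 and 41.3 (-1.59 ± 0.52). In female P40 the order was the opposite, since its 2 cells summed to 78.0 CPM against 66.8. Adamts15, a protease of the extracellular matrix, had -2.48 ± 0.89, and male cell 6 held 63.0% of its counts in the 14. Erbb4, the neuregulin receptor, had -0.47 ± 0.20. DESeq2 called 4 genes of this list, Akr1c18 (adjusted p = 3.36e-07), Unc5b (adjusted p = 0.00703), Adamts15 (adjusted p = 0.0189) and Syt2 (adjusted p = 0.0345), and 1 of the somatostatin list, Rbp4 (adjusted p = 0.0154). Unc5b, a netrin receptor gene, is named here after its value was seen. Akr1c18 entered the test only through the other cells, so its call and its place among the lower markers carry no weight.

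**Figure D3:**
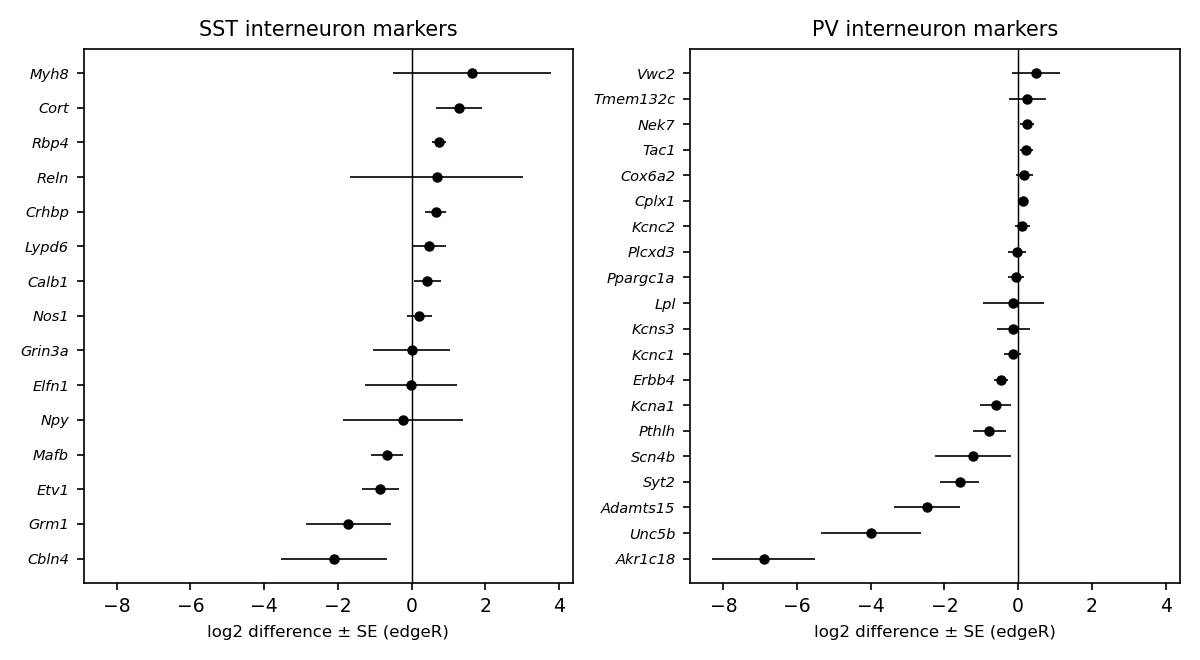
Log2 difference ± SE from edgeR for the tested markers of somatostatin cells (left, 15 genes) and parvalbumin cells (right, 20 genes); Sst and Pvalb are not tested. Values scatter on both sides of 0 in each list.

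Transcription factors shared by both families were present on both sides. Lhx6, needed for cells of the medial ganglionic eminence, had 85.4 to 145 CPM against 91.3 to 213 (-0.31 ± 0.30). Satb1, which acts in the maturing of somatostatin cells, had 190 to 225 CPM against 119 to 185, without overlap (0.46 ± 0.21; edgeR adjusted p = 0.964).

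Markers of VIP and CCK interneurons were lower in 10 of the 12 tested, against 56.0% of all tested genes. Their median log2 difference was -1.75. The 2 higher ones were Cnr1 (median 64.2 CPM in the 14 cells and 17.1 in the 40) and Nr2f2 (16.4 and 3.86). Summed per cell, the list went the opposite way, with a median of 300 CPM in the 14 cells and 260 in the 40. Of the lower ones, Cck, Vip and Slc17a8 had an unadjusted p under 0.05 (3.41% over all genes). Slc17a8 was at 0 in all 14 cells, so it entered the test only through the other cells and its direction was fixed. Cck, the cholecystokinin precursor, had 134, 219, 46.5 and 26.0 CPM against 286, 416, 99.6 and 261 CPM, lower in each pool (-1.57 ± 0.38; edgeR adjusted p = 0.897; DESeq2 adjusted p = 0.00187). Male cell 29, which held excitatory neuron markers at 1265 CPM, had 41.5% of the Cck counts of the 14 cells, and without the female P42 pool the Cck difference was -1.04. Vip had at most 42.1 CPM in the 14 cells and reached 2329 CPM in male cell 11, which held 86.3% of the Vip counts of the 40. Its sums were 0.561, 11.8, 0 and 1.99 CPM against 64.3, 563, 0.772 and 0.127, so that female P42 went the opposite way. The log2 difference of Vip was -4.64 ± 1.93, and edgeR called it without that pool (-6.20, adjusted p = 0.0106) and with only the cells of a 4-fold margin (-7.38, adjusted p = 0.00292). Of the 8 neurogliaform-cell markers 7 were lower, among them Id2, a regulator of transcription, at 28.9 to 89.0 CPM against 104 to 219 (-1.03 ± 0.42).

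Among receptor genes, Grik1, a kainate receptor subunit, had 105, 92.8, 117 and 131 CPM against 38.5, 96.1, 48.2 and 51.6, higher in 3 of 4 pools (1.01 ± 0.31; edgeR adjusted p = 0.928). Gria4, an AMPA receptor subunit, was lower in all 4, at 90.2 to 225 CPM against 187 to 250 (-0.50 ± 0.21). Of 20 glutamate receptor genes tested 6 were higher and 14 lower, with a median of -0.09, close to that of all genes. Gabra5, a GABA-A receptor subunit, had 30.5 to 43.4 CPM against 14.1 to 18.7, without overlap (1.26 ± 0.46; edgeR adjusted p = 0.928), and Gabrb1 had 57.9 to 114 CPM against 27.7 to 83.9 (0.76 ± 0.34). Male cell 29 held 32.9% of the Gabra5 counts of the 14, and without the cells of high other-cell marker sums the Gabra5 difference was 0.28 ± 1.04. Sstr2, a receptor for somatostatin, had 0.337, 8.62, 0.434 and 0.341 CPM against 22.1, 44.3, 0.880 and 28.0 (-3.97 ± 1.30; DESeq2 adjusted p = 0.00162), and male cell 29 held 88.9% of its counts in the 14 cells. The Sstr2 difference was -1.88 ± 1.68 without the cells of high marker sums. Sstr4, another somatostatin receptor, went the opposite way (1.33 ± 0.73, edgeR adjusted p = 0.964). Its median per cell was 15.4 CPM in the 14 cells and 6.56 CPM in the other cells. For Sstr2 these medians were 0.446 and 0.492 CPM. Sstr3 had -2.16 ± 2.51, and Sstr1 was not tested. Of 11 peptide receptor genes tested 3 were higher and 8 lower, with a median log2 difference of -1.66.

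Among synaptic and calcium genes, Lrrtm1, a postsynaptic organiser that binds neurexins, had 22.05, 21.7, 6.47 and 0.524 CPM against 77.6, 95.6, 15.8 and 31.9 (-2.55 ± 0.76; DESeq2 adjusted p = 0.00554). Hpca, the calcium sensor hippocalcin, had 22.5 to 180 CPM against 109 to 197 (-1.37 ± 0.43; DESeq2 adjusted p = 0.0263). Both were lower in each pool, with overlap between pools. Nrxn3, a presynaptic adhesion gene named in the title of the series, had 208, 82.0, 171 and 142 CPM against 219, 210, 179 and 175 (-0.44 ± 0.25; edgeR adjusted p = 0.964). The deposited isoform table allowed only the alpha share of Nrxn2 and Nrxn3 to be compared, 2 of 13 features, since other features summed to under 100 in some pool and side. The alpha share of Nrxn3 was 73.8, 86.7, 100 and 18.3% against 94.6, 82.4, 76.3 and 62.9%, a mean difference of -9.35 points ± 14.9 (SE, n = 4 pools; exact two-sided sign-flip test p = 0.75). For Nrxn2 the mean difference was 3.43 points ± 7.63 (exact p = 0.75).

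**Figure D4:**
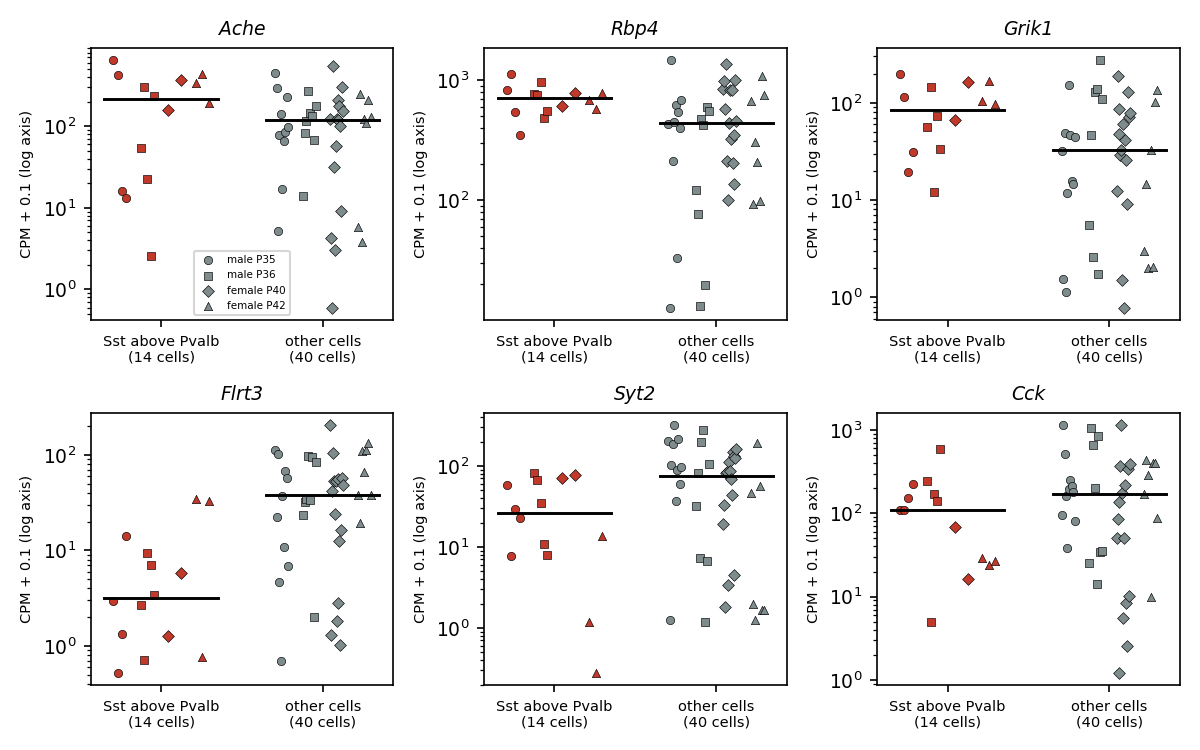
CPM + 0.1 on a log axis for 6 genes in each of the 54 Pass cells, by side, with symbols for the pool and a line at the median. Medians differ between sides in every panel. They are higher in the 14 cells for Ache (214 and 118 CPM), Rbp4 (714 and 435) and Grik1 (85.2 and 32.5). They are lower for Flrt3 (3.08 and 37.8 CPM), Syt2 (26.2 and 75.8) and Cck (110 and 173). Single cells overlap in every panel.

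No early response or energy gene passed the test. Of 11 immediate early genes tested 10 were lower, against 56.0% lower over all tested genes, with a median log2 difference of -0.49 and 3 at an unadjusted p under 0.05 (3.41% of all genes were lower at that p). Egr1 had 291 to 340 CPM against 338 to 643 (-0.53 ± 0.19), and Junb had 117 to 322 CPM against 176 to 454 (-0.49 ± 0.18). Per cell, Junb had close medians of 173 CPM in the 14 cells and 180 in the 40, and female cell 21 of the 40 reached 2122 CPM. Of 20 nuclear genes of oxidative phosphorylation 18 were higher, against 44.0% of all tested genes, with a median of 0.12. Of 13 mitochondrially encoded genes 12 were lower, with a median of -0.29. None of either list had an unadjusted p under 0.05. The mitochondrial share of counts had a median of 1.16% in the 14 cells and 1.51% in the 40.

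Markers of other cell types also had unequal values. All 8 microglia markers were lower, 4 at an unadjusted p under 0.05 (3.41% of all tested genes were lower at that p). Csf1r had 11.8 to 51.8 CPM against 41.0 to 223, and Ctss, a lysosomal protease, 6.14 to 46.9 against 55.6 to 181. DESeq2 called both, with adjusted p of 0.0236 and 0.0212. Of 8 oligodendrocyte markers 7 were higher, against 44.0% of all tested genes. Mog, a myelin surface protein, had 0.576 to 19.8 CPM against 0.0115 to 0.803 (4.57 ± 1.28, DESeq2 adjusted p = 0.00219). Male cell 19 held 58.2% of the Mog counts of the 14. Aldoc, an enzyme of astrocytes, had 943 to 1173 CPM against 499 to 981 (0.60 ± 0.21). These values belong to RNA picked up with the cell or made in it, which cannot be told apart here.

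The labels give 3 electrical measures, vrest, rm and cm, with no unit; they are read here as resting potential, membrane resistance and membrane capacitance. Each was present for 11 of the 14 cells and 38 of the 40. They were compared as the mean difference within pools, by an exact two-sided sign-flip permutation test over 4 pools, whose smallest p is 0.125, so that it cannot reach 0.05.

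The value of cm was lower in the cells with Sst above Pvalb in all 4 pools. Its pool means were 38.0, 34.2, 18.0 and 41.7 against 45.8, 62.5, 39.5 and 43.0, a mean difference of -14.7 ± 6.17 (SE, n = 4 pools; exact p = 0.125). Over cells it ran from 18 to 63, median 34, against 21 to 102, median 38. The gap in male P36 rested on 5 cells against 8, that in female P40 on 1 cell.

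The value of rm was higher in 3 of 4 pools. Its pool means were 401, 378, 654 and 289 against 313, 222, 289 and 351, a mean difference of 137 ± 88.5 (exact p = 0.25). The female P40 value of 654 was that of 1 cell, and without that pool the mean difference was 60.7. Over cells rm ran from 188 to 654, median 372, against 88 to 805, median 255.5.

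The value of vrest was more negative in 3 of 4 pools, with means of -64.3, -57.9, -66.0 and -61.0 against -59.0, -59.4, -58.4 and -55.5 and a mean difference of -4.24 ± 1.98 (exact p = 0.25). Both female pools held 1 cell with Sst above Pvalb and a vrest value. The cell with the most Sst, male cell 5, had the lowest vrest of all, -72.

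**Figure D5:**
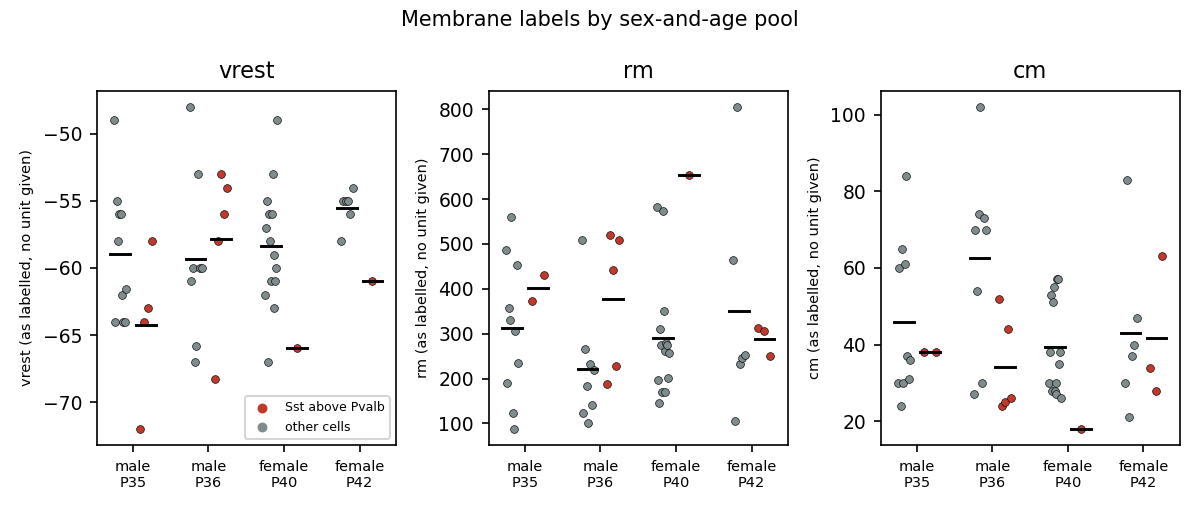
vrest, rm and cm as labelled (no unit given) by pool; red points are cells with Sst above Pvalb, grey points the other cells, and lines the means. The red mean lies lower in all 4 pools for cm, higher in 3 for rm and lower in 3 for vrest.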

How the data were processed

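The submitters' processing notes name STAR, edgeR and the build GRCm38; how reads were counted, with what annotation and strand use, is not given in those notes or labels. The authors deposited unnormalized counts for 25648 genes and 58 cells. The deposited normalized table was not used: in 54 of 54 Pass cells it equals the counts times 1 factor per cell. The isoform table that the authors deposited holds a signal of unstated unit. The 58 labels matched the columns of both tables (0 unmatched), and 0 of 1431 pairs of Pass cells had identical counts. Reads carry no stated molecular identifiers.

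The members and lists were chosen with earlier results of these data known. Counts of Pass cells were summed by pool and side. Genes with a count in at least 10 cells that passed filterByExpr were tested, except Sst and Pvalb, with edgeR's quasi-likelihood test (edgeR 4.0.16, R 4.3.3; TMM, pool as a block, two-sided, Benjamini-Hochberg, threshold 0.05). SE is the absolute log2 difference divided by the root of the F statistic. Levels of a pool are given as CPM after TMM scaling. Genes with an annotated single locus take coordinates from GENCODE vM21. The fit was tested on simulated data.

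Named genes followed a rule: called genes of like sign in all pools; under 10 calls, 8 more in each direction by smallest p and like sign, as values; 2 most abundant and 2 smallest-p members of each of 28 lists; and a fixed set. A result is not reported here. Single cells are named where they held a large share of a gene, picked with the values in view. Alternatives were RLE scaling, DESeq2 and limma, other filters, no block, single pools left out, thinned cells, other side rules, and, chosen after seeing the data, leaving out 14 cells whose marker sums reached 2000 CPM (1000 CPM for excitatory markers). Same-numbered cells are not paired; the 2 sums of a pool deviated together little (correlations 0.0112 to 0.0648).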

Additional observations from a re-analysis of the deposited data

Results flagged for a closer look

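Of 53 sets of 4 pool differences, 5 held a pool whose gap to the others was large for the range; chance gives about 1 in 20 such sets. For Akr1c18 the log2(CPM + 1) difference in female P40 was -0.64, nearer to 0 than in the other pools. For Grin3a it was -3.49 in female P40. For Cck it was -3.28 in female P42, more negative than the others. For Id2 it was -2.88 in female P40. For Grik1 it was -0.049 in male P36, where the other pools were higher. Each of these pools holds 2 to 5 cells with Sst above Pvalb. A model with a term for the difference between the sexes called 0 of 14027 genes with edgeR (597 at an unadjusted p under 0.05).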

How the results depend on the processing

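The count of called genes was 0 with edgeR and 0 with limma; DESeq2 called 272. Only cells with a 4-fold margin gave 1 call, Vip. Leaving out 1 pool gave 0 to 1 calls (Vip, without female P42). No other alternative gave a call. Without the replicate block 0 genes were called, and the numbering does not pair cells; the differences over all cells without the block were -2.94 for vrest, 91.8 for rm and -11.1 for cm. Of 48 genes with a difference, 42 kept their direction in all 17 alternatives. In 1 of these, at least 10 CPM of Pvalb in the other cells, no cell dropped out, so it repeats the main fit. Genes chosen for like sign in every pool were also likely to keep their direction when a pool was left out. Npy was positive under limma (1.60), without the block (2.47), without female P40 (1.28), without male P36 (0.85), with thinned cells (0.20) and without cells of high other-cell markers (0.87). Grin3a was negative without female P42 (-0.48), male P35 (-0.62) or male P36 (-0.25), with Sst of at least 10 CPM (-0.058), without the highest Sst cell (-0.57) and without high-marker cells (-0.94). Elfn1 was positive under RLE (0.0033), DESeq2 (0.0030), limma (0.59), without the block (0.45), without male P36 (0.79), at a 4-fold margin (1.01), with Sst of at least 10 CPM (0.28) and without high-marker cells (1.11). Kcnc2 was -0.13 without female P40, Gad1 -0.021 under limma, and Lhx6 0.0195 without male P36, 0.11 at a 4-fold margin and 0.14 without high-marker cells. The causes were not tested. Leaving out 1 pool gave -1.59 to 1.28 for Npy, -0.62 to 0.92 for Grin3a, -0.53 to 0.79 for Elfn1, -0.13 to 0.22 for Kcnc2 and -0.62 to 0.0195 for Lhx6. Leaving out 1 pool gave -6.14 to -3.10 for vrest, 60.7 to 203 for rm and -19.2 to -10.2 for cm. The alpha share difference ran from -3.25 (without female P42) to 8.01 points for Nrxn2 and from -20.3 to 2.42 (without female P42) for Nrxn3. With 4 sums a side, 2 to 5 cells in each smaller sum and sparse genes, small differences cannot be detected.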

Other observations

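The 4 cells labelled Fail entered no comparison. In 2 of them Sst exceeded Pvalb: male cell 3 held 618 CPM of Sst and 251 of Pvalb, and male cell 4 held 1167 and 33.5 CPM. Female cell 6 held 36.7 and 247 CPM, and female cell 10 held 10.4 and 1030 CPM. The first 3 had totals of 835969, 596471 and 545497 counts, below every Pass cell, and female cell 10 had 5078485.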
